A study of Sus scrofa with 48 samples.

Results

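The 5 genes SREBF1, FASN, SCD, ACACA and ACLY, which make or control the making of fatty acids, were followed over liver, gluteus medius muscle (GM, labelled as skeletal muscle) and kidney of the F2 pigs. Their probes were taken by the RefSeq accession that the array files give, which found 14 probes among the 43603 different probes of the array: 2 for SREBF1, 3 each for FASN and SCD, 4 for ACACA and 2 for ACLY. Accessions paired 2628 probes with 1862 genes, and the other probes were not named here, so further probes of these genes may be on the array under other identifiers. The 16 pigs fell into 2 lines of 8, F2 C and F2 E, each with 4 barrows (castrated males) and 4 females, and each pig gave all 3 tissues, which makes 48 arrays. The lines differ in what their F0 boars ate. Those of F2 C had the standard diet, and those of F2 E had it enriched with folate, betaine, choline, methionine and the vitamins B12 and B6. The F1 boars and all F2 pigs received the standard diet alone. The pigs were Swiss Large White animals with feed freely available until it was withdrawn before slaughter, and this holds for both groups. The F2 pigs descended from few F1 boars, and the labels do not give the sire or litter of a pig, so pigs of 1 group may be related and p-values measure the spread between these 16 pigs.

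The 5 genes act along 1 route. ACLY, ATP citrate lyase, cleaves citrate in the cytosol to acetyl-CoA. ACACA, acetyl-CoA carboxylase, turns acetyl-CoA into malonyl-CoA, the committed step, FASN, fatty acid synthase, builds palmitate from it, and SCD, stearoyl-CoA desaturase, sets the double bond that makes oleate out of stearate. SREBF1 encodes the transcription factor SREBP-1, which drives these enzymes in the fed state and in response to insulin, while fasting lowers them. In the pig, adipose tissue is the main site of fatty acid synthesis and the liver contributes less than it does in rodents.

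Levels are log2 of the median pixel signal of a spot after quantile normalization, so that a difference of 1 is a 2-fold change. They were compared between arrays for the same probe only, since the brightness of different probes has no common scale. Between 18948 and 36804 spots per array were well above background. All 5 hepatocyte marker probes, all 9 muscle marker probes and 2 of 3 kidney marker probes read higher on every array of their own tissue than on any other array. Both SREBF1 probes, A_72_P223967 and A_72_P326973, and the leading probes of FASN (A_72_P223177), SCD (A_72_P088586) and ACLY (A_72_P165331), those with the highest signal of their gene, were well above background on all 16 arrays of each tissue. The ACACA probes were dim. In liver 2 of them were above background on all 16 arrays, and in GM 2 of the 4 (A_72_P023091 and A_72_P387983) were above it on 0 of 16. Of 672 readings of the 14 probes, 1 was marked as an outlier by the extraction software and left out: that of A_72_P223177 in GM of 1 F2 C female, so FASN has 15 pigs there. Each pig is named here by its line and its number in the liver labels, C1 to C8 and E1 to E8. The animal numbers in the labels fall into 2 ranges, the lower number series (C5 to C8 and E5 to E8) and the upper number series (C1 to C4 and E1 to E4). In GM and kidney each of the 4 slides held pigs of 1 line and 1 number series. In liver slide 1 held the 4 barrows and slide 2 the 4 females of the lower series, 2 F2 C and 2 F2 E pigs on each, whereas slides 3 and 4 held the F2 E and the F2 C pigs of the upper series.

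SREBF1, FASN and SCD were at their lowest in kidney, and ACLY was at its lowest in GM. With all 48 arrays normalized together, SREBF1 on A_72_P223967 ranged from 11.04 to 14.21 in liver (median 13.52), from 9.67 to 14.25 in GM (median 13.90) and from 7.62 to 9.12 in kidney (median 8.28). The kidney arrays did not overlap with the others, and liver exceeded kidney in 16 of 16 pigs. FASN on A_72_P223177 ranged from 12.51 to 15.63 in liver (median 14.82), from 12.89 to 15.61 in GM (median 14.58) and from 11.54 to 12.71 in kidney (median 11.97). SCD on A_72_P088586 ranged from 11.83 to 15.20 in liver (median 13.69), from 11.21 to 15.10 in GM (median 13.38) and from 8.81 to 11.10 in kidney (median 9.64). Thus liver and GM covered nearly the same range for both enzymes. ACLY on A_72_P165331 ranged from 12.59 to 13.35 in liver (median 12.98), from 11.26 to 12.45 in GM (median 11.64) and from 12.21 to 13.33 in kidney (median 12.80). For ACLY the GM arrays lay lowest, and every GM array was below every liver array.

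**Figure D1:**
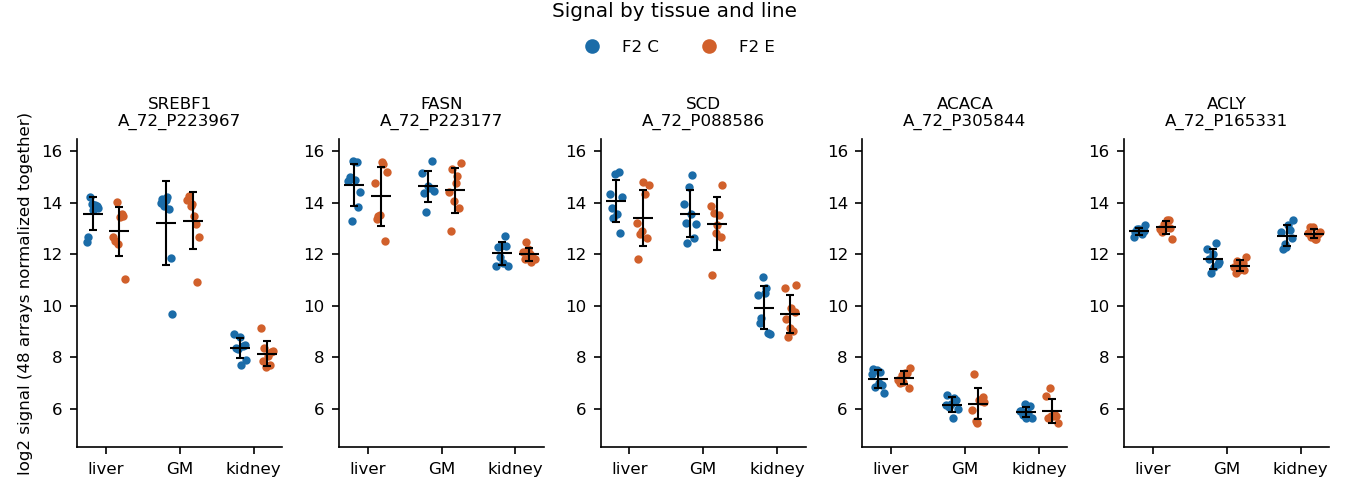
Log2 signal of 1 probe per gene (y axis, 48 arrays normalized together) in liver, GM and kidney (x axis), with 1 point per pig, F2 C in blue and F2 E in orange, and bars for the mean and SD of a line. SREBF1, FASN and SCD lie lowest in kidney, ACLY lies lowest in GM, and the 2 lines overlap in every tissue.

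The difference of liver over kidney was 4.99 (SE 0.32) and 2.60 (SE 0.27) for the 2 SREBF1 probes, between 1.30 and 3.86 for the 3 FASN probes and between 2.14 and 3.95 for the 3 SCD probes. Each of these 8 probes was higher in liver in 16 of 16 pigs, with p = 3.05e-05 by an exact two-sided sign-flip permutation test, the smallest that 16 pigs can give. Limma called 12 of the 14 probes higher in liver than in kidney, against 33.5% of all probes called higher, and 0 lower. The median difference of the 14 probes was 1.72, against -0.02 over all probes. In kidney against GM it called 9 of 14 probes lower and 2 higher, against 35.3% and 40% of all probes. The difference of kidney minus GM was -5.01 and -3.07 for the SREBF1 probes and -2.54 and -3.58 for the leading probes of FASN and SCD, all with adjusted p of 6.1e-13 or below. Under each of the scalings tried the SREBF1, FASN and SCD probes kept a lower signal in kidney than in liver and GM, except that the dimmest FASN probe, A_72_P175196, was called lower in kidney than in GM with the arrays normalized together (-0.78) and not with each tissue normalized on its own (adjusted p = 0.988).

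Between liver and GM the picture differed by gene. Limma called 7 of 14 probes higher in liver and 1 lower, against 35.7% and 35% of all probes. ACLY on A_72_P165331 was 1.28 higher in liver than in GM (SE 0.10, limma adjusted p = 4.29e-16, higher in 16 of 16 pigs) and 1.08 higher in kidney than in GM (adjusted p = 1.8e-13, 16 of 16 pigs). Between liver and kidney this ACLY probe was not called (0.21, adjusted p = 0.0694), and its order rests on the scaling. For liver against kidney, ACLY A_72_P165331 was called higher in liver with the processed and with the median signal scaled at the 75th percentile (0.32 and 0.34, adjusted p = 0.00679 and 0.00491) and lower in liver with each tissue normalized on its own (-0.26, adjusted p = 0.0234), which moved the median of all probes to -0.18. The leading probes of SREBF1 (-0.02, 95% interval -0.65 to 0.62), FASN (-0.09, -0.60 to 0.41) and SCD (0.35, -0.24 to 0.94) were not called between liver and GM. Normalizing each tissue on its own put them higher in liver by 0.71, 0.60 and 1.10, but that scaling also moved the median difference of all probes from 0.01 to 0.69. The order of liver and GM for these genes rests on the scaling. The 4 ACACA probes read higher in liver by 0.37 to 1.00, but 2 of them were never above background in GM. For a bound, GM readings below the lowest above-background signal of their array were raised to it. The mean liver signal of A_72_P023091 was then 1.08-fold that of GM, a value without an interval. This probe was itself above background on only 10 of 16 liver arrays. A_72_P387983 gave no bound above 1.

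GM was collected as whole muscle, and in such bulk samples fewer cells of a type and less RNA per cell cannot be told apart. All 9 adipocyte markers were on the array (ADIPOQ, LEP, PLIN1, CIDEC, CIDEA, FABP4, PPARG, LPL and LIPE). Their summed linear signal, with each tissue normalized on its own, ranged from 34312 to 65567 in GM of F2 C and from 31163 to 109671 in GM of F2 E. In liver the sums were 2123 to 3013 and 2535 to 3878, and in kidney 10687 to 14862 and 9433 to 16887. By the mean of a marker, here with all arrays normalized together, 8 of 9 were highest in GM, whereas LEP was highest in kidney (8.46, against 7.57 in GM). CIDEC was nearly as high in liver as in GM (8.98 and 9.20, against 6.18 in kidney). The order of liver and GM for CIDEC may differ with each tissue normalized on its own. FABP4 and LIPE make up most of the sum in GM. LPL was above background on 0 of 16 liver arrays, and all 9 markers were above it on at least 10 GM arrays. The sum was thus highest in GM and lowest in liver. In these 2 tissues FASN and SCD covered nearly the same range with all arrays normalized together. The relation of the sum to the enzymes was examined across pigs within GM.

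The comparison of F2 E with F2 C asks whether the diet of the F0 boars went along with a different expression of these genes 2 generations later. None of the probes tested passed the adjusted threshold in any tissue. In liver the medians of SREBF1, FASN and SCD were lower in F2 E, but the lines overlapped on every probe. SREBF1 on A_72_P223967 had a lowest, median and highest value of 12.50, 13.90 and 14.30 in F2 C and of 11.03, 13.08 and 14.12 in F2 E. FASN on A_72_P223177 had 13.33, 15.01 and 15.84 in F2 C and 12.52, 14.24 and 15.80 in F2 E. SCD on A_72_P088586 had 12.85, 14.09 and 15.37 in F2 C and 11.82, 13.07 and 14.96 in F2 E. The highest pigs of the lines were close for FASN and SREBF1, and the lowest pigs were F2 E. ACLY on A_72_P165331 had a far narrower range, 12.67, 12.91 and 13.14 in F2 C and 12.59, 13.05 and 13.38 in F2 E.

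Limma called 0 of 14 probes in liver, where 0.0937% of all 28823 probes were called, 0 of 10 in GM (0.769% of all probes) and 0 of 13 in kidney (0.0119%). The count at an unadjusted p below 0.05 was also 0 in each tissue, against 8.29%, 16.1% and 3.89% of all probes, and the methods' t-test at its threshold of 0.01 found 0 probes before and after Benjamini-Hochberg adjustment. The lowest adjusted p among the probes was 0.64 in liver, 0.412 in GM and 1 in kidney. In liver the difference of F2 E minus F2 C was -0.71 (95% interval -1.49 to 0.07, exact permutation p = 0.101) and -0.59 (-1.43 to 0.26) for the SREBF1 probes. For the leading probes of FASN and SCD it was -0.47 (-1.46 to 0.53) and -0.69 (-1.65 to 0.26), and for that of ACLY it was 0.16 (-0.08 to 0.40). The differences were negative for 11 of 14 probes in liver, 9 of 10 in GM and 10 of 13 in kidney, against 53.8%, 53.4% and 53.6% of all probes, and probes of 1 gene measure the same RNA. Medians of the differences over the probes were -0.32 in liver, -0.19 in GM and -0.04 in kidney, against -0.02, -0.02 and -0.01 over all probes. The intervals for the leading probes of FASN, SCD and SREBF1 in liver reach beyond a 2-fold lower signal in F2 E and so include a difference of that size. The ACLY interval was narrower and ended at 0.40. The lines also differed in signal: in GM 23491 to 28754 spots were above background in F2 C and 18948 to 25728 in F2 E, and the part of this in the GM differences was not tested.

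**Figure D2:**
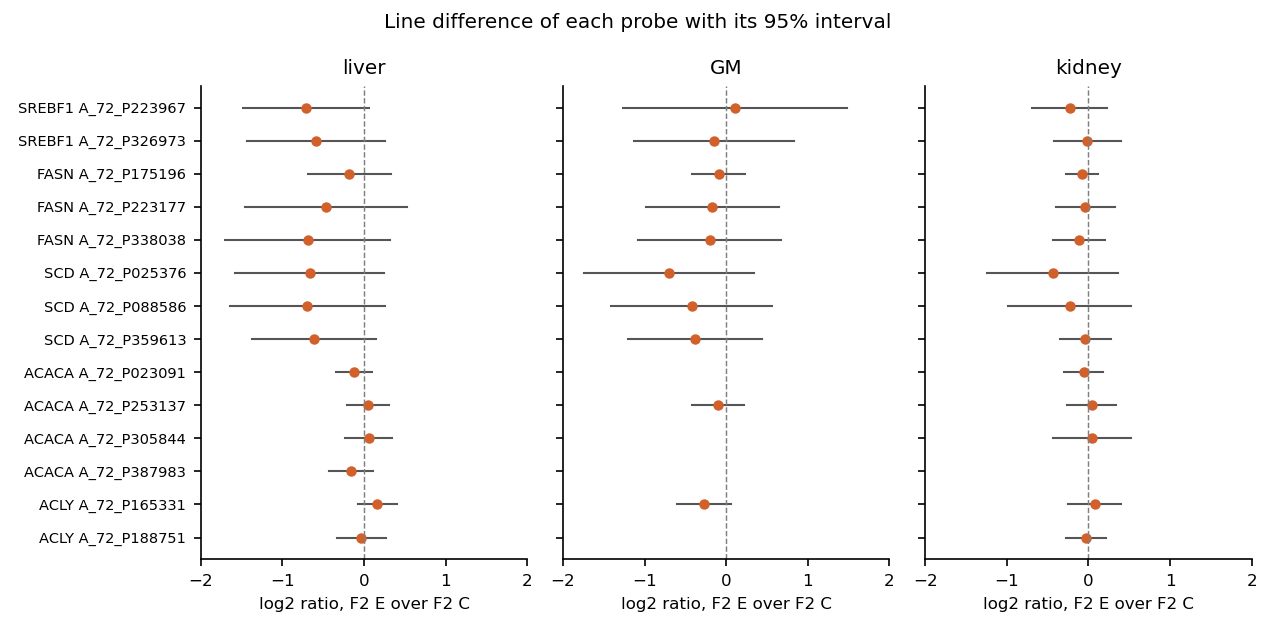
Log2 difference of F2 E minus F2 C (x axis) for each probe tested (y axis) in liver, GM and kidney, with points for the limma estimate and lines for its 95% interval. All 37 intervals cross 0, and the liver intervals of FASN, SCD and SREBF1 are wider than those of ACACA and ACLY.

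Within the lower number series the liver difference of F2 E minus F2 C was -0.98 for FASN and -1.57 for SCD on their leading probes, and within the upper series it was 0.04 and 0.18. On slide 1, which held 2 barrows of each line, it was -0.91 for FASN and -1.62 for SCD, and on slide 2, with 2 females of each line, -1.04 and -1.51. In the upper series the F2 E livers were on slide 3 and the F2 C livers on slide 4. Line and slide cannot be told apart there. Whether the line difference depends on the number series was not tested. SREBF1 behaved otherwise, with 0.01 on slide 1, -0.89 on slide 2 and -0.98 in the upper series on A_72_P223967. An interaction of line with tissue was called for 0 of 14 probes (0.122% of all probes for liver against GM, 0.0203% for liver against kidney, 0.0464% for kidney against GM). For ACLY on A_72_P165331 the line difference was 0.41 larger in liver than in GM, with a limma adjusted p of 0.656. An interaction of line with sex was called for 0 probes in any tissue (0% of all probes).

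Barrows are known to be fatter than females, and the sexes were compared with the line as a covariate. In liver the sexes lay farthest apart for FASN, without a call. On A_72_P338038 barrows ranged from 10.27 to 12.56 and females from 9.23 to 12.51, a difference of 1.23 (SE 0.40). This probe had an unadjusted p of 0.00635 and an adjusted p of 0.212 by limma, with an exact permutation p of 0.0235. The permutation, unlike limma, took no account of the line. On A_72_P223177 the difference was 1.02 (SE 0.42, limma adjusted p = 0.291, exact permutation p = 0.0536). The dimmest FASN probe, A_72_P175196, differed by 0.12 (adjusted p = 0.851 by limma). Limma called 0 of 14 probes in liver, 0 of 10 in GM and 0 of 13 in kidney (0.121%, 0.121% and 0.0921% of all probes), and at an unadjusted p below 0.05 it gave 2, 1 and 0 (14.2%, 3.86% and 0.939% of all probes). The FASN difference on A_72_P223177 was 1.49 within the upper series, where the 4 barrows lay between 15.03 and 15.80 and the 4 females between 12.52 and 15.39. In the lower series it was 0.56, and there sex and slide cannot be told apart. SCD differed by 0.33 on its leading probe (adjusted p = 0.774) and ACLY by -0.01 (adjusted p = 0.978). SREBF1 had the opposite sign in liver, -0.25 and -0.77 on A_72_P223967 and A_72_P326973 (adjusted p = 0.795 and 0.36 by limma). In GM it was 1.37 and 0.73 higher in barrows on these probes (adjusted p = 0.998 for both), and A_72_P223967 was the 1 probe with an unadjusted p below 0.05 there.

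The liver values of SREBF1 fell into 2 separate sets of pigs on both probes. There were 6 pigs at 12.68 or below on A_72_P223967 and 10 at 13.49 or above, with an empty stretch of 0.80 between them. The split was sought only where it left at least 4 pigs on either side. On this probe a wider empty stretch lay inside the low set, between E3 at 11.03 and the next pig at 12.43. On A_72_P326973 the same 6 pigs lay at 11.26 or below and the other 10 at 12.10 or above. On that probe the 4 barrows of the lower series, the F2 C pigs C5 and C6 and the F2 E pigs E5 and E6, read 10.81, 10.80, 10.79 and 10.76. They were the 4 arrays of slide 1 and lay between 10.76 and 10.81. The other low pigs were the F2 E females E8 (11.26, on slide 2) and E3 (10.83, on slide 3). The low set thus held 2 F2 C and 4 F2 E pigs, and both probes, with r = 0.90 between them over the 16 livers, placed each pig in the same set. The other 3 pigs of slide 2, all females of the lower series, had the highest values of this probe, 12.83, 13.05 and 13.14. For the lower series sex and slide cannot be told apart, and the part of the slide in these values was not tested.

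**Figure D3:**
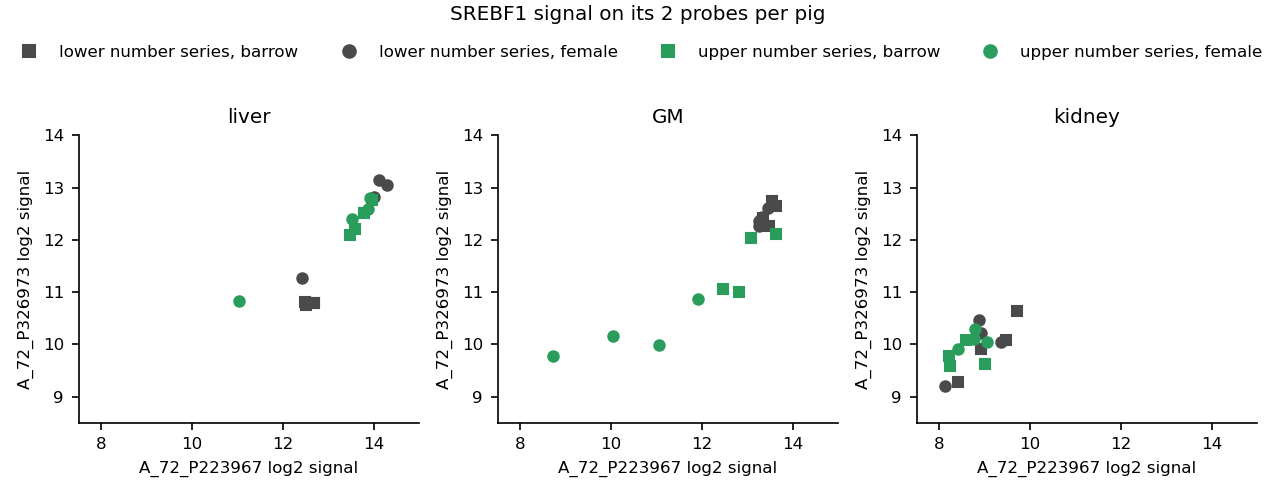
SREBF1 log2 signal on probe A_72_P223967 (x axis) and A_72_P326973 (y axis) in liver, GM and kidney, with 1 point per pig, squares for barrows, circles for females, grey for the lower and green for the upper number series. The 6 low liver points stand below the other 10 on both probes, in GM all 8 grey points lie at 12.26 or above on the second probe and all 8 green points at 12.11 or below, and in kidney the series overlap.

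In GM, SREBF1 split by the number series of the pigs, a comparison added after the data were seen. On A_72_P326973 the 8 lower series pigs lay between 12.26 and 12.75. Among the upper series the F2 C barrows C1 and C2 read 12.11 and 12.04 and the F2 E barrows E4 and E1 read 11.00 and 11.06. The F2 C females C3 and C4 read 9.99 and 9.77 and the F2 E females E2 and E3 read 10.17 and 10.87. So the series did not overlap, which 0.415% of all probes do in GM, and the 4 upper series females lay below the 4 upper series barrows. The upper series was lower by 1.59 (SE 0.29, limma adjusted p = 0.00769, exact permutation p = 0.000155, the smallest that 8 against 8 allows). Limma called 1 of 10 probes lower, against 2.05% of all probes. The other SREBF1 probe, A_72_P223967, showed 13.25 to 13.64 in the lower series and 8.71 to 13.62 in the upper series, where its lowest values were again the females (8.71, 10.05, 11.05 and 11.90). Its difference was -1.70 (SE 0.53) with an adjusted p of 0.0848 and an exact permutation p of 0.00218.

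In GM each slide held 1 series and 1 line, so series and slide cannot be told apart. With the slide as a random block 0 SREBF1 probes were called in GM (adjusted p = 0.0738 for A_72_P326973), with sex as a covariate both were, and without C1 both were. FASN, SCD, ACLY and the 1 ACACA probe tested gave no call between the series in GM, with differences of 0.58, 0.37, 0.08 and 0.15 on their leading probes. In liver the upper series was higher by 0.24 and 0.60 on the 2 SREBF1 probes with no call, and the 14 probes gave 0 calls (3.05% of all probes). In kidney 0 of 13 were called (0.11% of all probes). The difference of the upper minus the lower series on A_72_P326973 was thus negative in GM (-1.59) and positive, without a call, in liver (0.60). Its interaction with tissue, the signed liver value minus the signed GM value with the arrays normalized together, was 2.07 (SE 0.44, limma adjusted p = 0.00548), the 1 call among 14 probes, against 2.36% of all probes. The test of this interaction was also added after the data were seen. Between kidney and GM the same interaction was 1.42 (adjusted p = 0.0619) and between liver and kidney 0.65 (adjusted p = 0.391), and 0 of 14 probes were called in either (2.03% and 1.79% of all probes). The pigs at the bottom thus differed between the tissues, apart from E3, which was in the low set in liver and among the lowest 4 in GM on both probes.

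Within liver FASN and SCD varied widely from pig to pig, and they varied together. The leading FASN probe ranged over the 16 livers from 12.52 in the F2 E female E2 to 15.84 in the F2 C female C8. The 2 pigs at the top of SCD, C2 with 15.37 and C8 with 15.30, were also among the 3 highest for FASN. The pig lowest for SCD, F2 E barrow E6 with 11.82, was among the 3 lowest for FASN with 13.40. Pearson's r of FASN and SCD was 0.86 over 16 pigs (permutation p = 3e-05, adjusted p = 0.00042 over the 14 relations computed in liver) and Spearman's rho 0.90 (permutation p = 2e-05, adjusted p = 0.00028). It was 0.90 without the 2 pigs farthest from the FASN median, between 0.84 and 0.89 when 1 pig was left out at a time, 0.81 within F2 C and 0.88 within F2 E. Within the lower and upper number series it was 0.82 and 0.89, and 0.90 after centring on the slides (permutation within slides, p = 0.00121). The relation did not rest on 1 probe, since all 9 pairs of a FASN with an SCD probe had r between 0.80 and 0.88. Pairs of probes of the same gene had r of 0.77 to 0.97 for FASN and 0.96 to 0.99 for SCD.

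**Figure D4:**
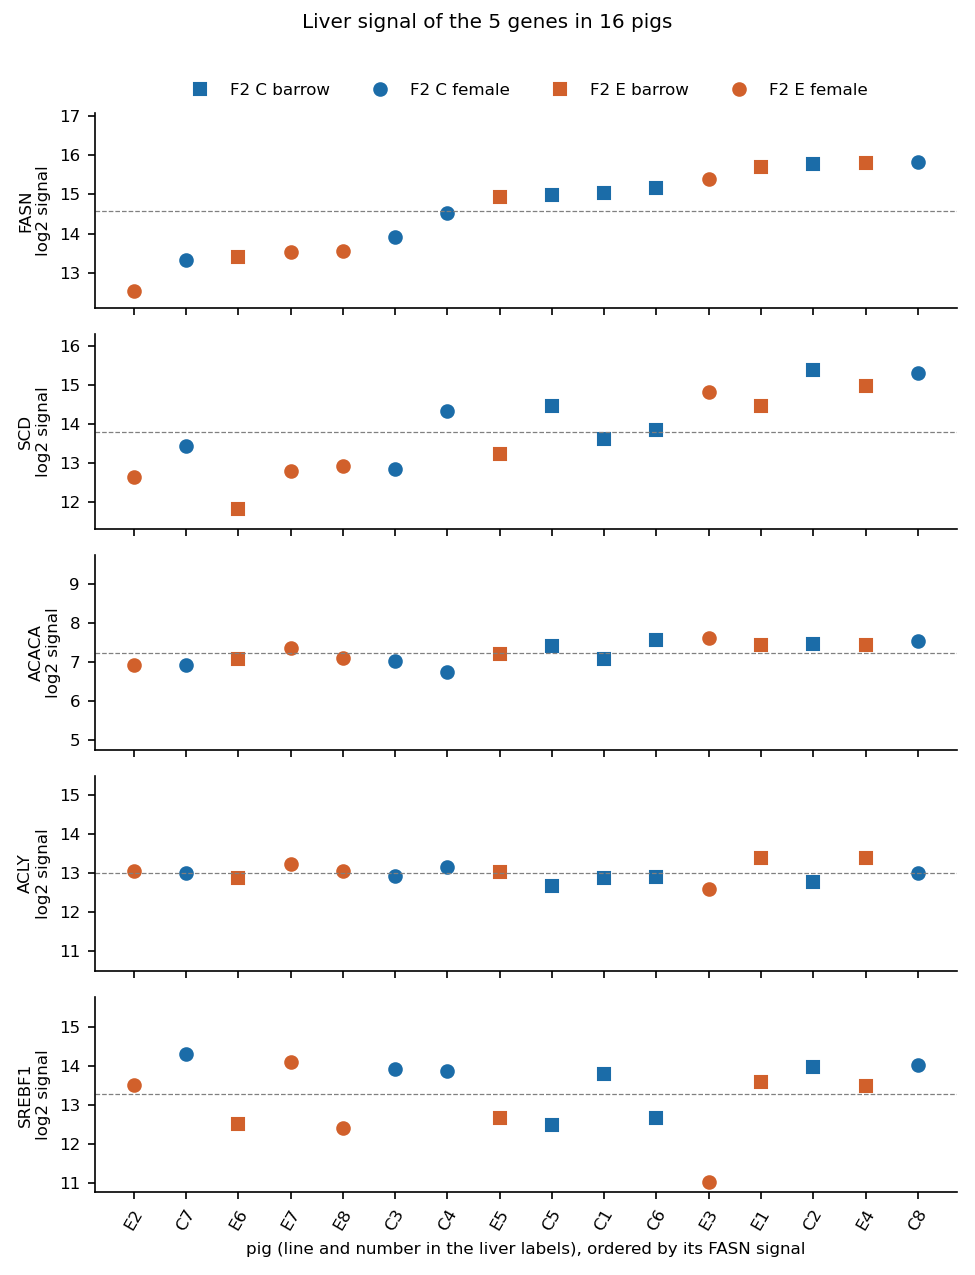
Log2 signal in liver (y axes, 1 probe per gene, each spanning the same width) for the 16 pigs (x axis), ordered by FASN, with squares for barrows, circles for females, blue for F2 C, orange for F2 E and a dashed line at the mean. SCD rises along the FASN order, ACACA rises over a narrower range, ACLY stays between 12.59 and 13.38, and SREBF1 shows 6 low pigs spread over the order.

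ACACA followed FASN over a narrower range, from 6.74 to 7.61 on A_72_P305844. Its r with FASN was 0.69 (permutation p = 0.0036, adjusted p = 0.0252) with rho 0.77 (p = 0.00084, adjusted p = 0.00588), 0.59 without the 2 outlying pigs, 0.79 and 0.73 within the series and 0.81 after centring on the slides (p = 0.00161). With SCD it reached r = 0.58 (p = 0.0204, adjusted p = 0.0952) and rho 0.65 (p = 0.00747, adjusted p = 0.0349), so this relation passed the threshold by rank only. ACLY stood apart. Its r was -0.03 with FASN, -0.05 with SCD and -0.16 with ACACA, with adjusted p between 0.79 and 0.904, and its whole range over the 16 livers was 12.59 to 13.38. For SREBF1 r is given within its 2 sets of pigs, since a pooled value would mix them. The sets are separated on the SREBF1 values themselves, which narrows the range of SREBF1 within each, so the values are a description and do not test for a relation. Over the 10 high pigs r was -0.21 with FASN, -0.10 with SCD, -0.08 with ACACA and -0.46 with ACLY, and over the 6 low pigs it was -0.36, -0.55, -0.53 and 0.70. These values rest on few pigs. Without the 2 farthest from the SREBF1 median they were 0.22, 0.22, 0.36 and -0.28 in the high set (without C7 and E4). In the low set they were 0.57, 0.02, 0.07 and 0.20 (without C6 and E3). The number of spots above background on an array, a measure of its signal, had r of -0.10 with FASN, -0.03 with SCD, -0.39 with ACACA and 0.28 with ACLY in liver (permutation, adjusted p of at least 0.532 over 4 relations).

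**Figure D5:**
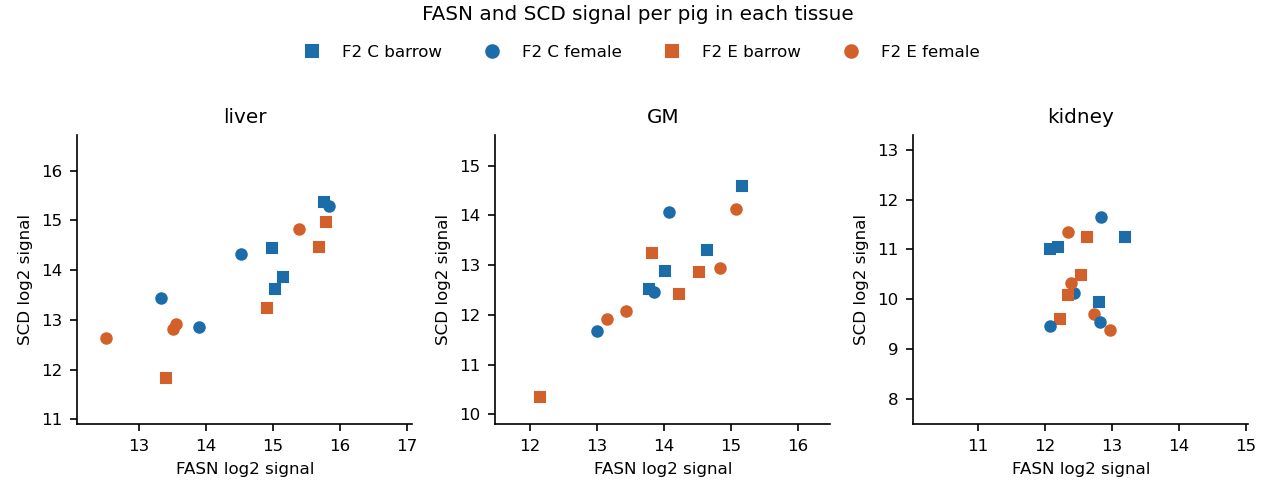
FASN log2 signal (x axes) against SCD log2 signal (y axes) with 1 point per pig in liver, GM and kidney, squares for barrows, circles for females, blue for F2 C and orange for F2 E. The axes span equal widths between panels, and the points follow a line in liver (r = 0.86) and GM (r = 0.88) but form no line in kidney (r = 0.04).

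In GM the enzymes moved together and ACLY was one of them. FASN and SCD had r = 0.88 (n = 15, permutation p = 2e-05, adjusted p = 0.00018 over 9 relations) and rho 0.84 (p = 0.00019, adjusted p = 0.00117), and 0.75 without E6 and C2. FASN and ACLY had r = 0.80 (n = 15, permutation p = 0.00028, adjusted p = 0.00084) and rho 0.82 (p = 0.00039, adjusted p = 0.00117). SCD and ACLY had r = 0.82 (n = 16, permutation p = 0.00012, adjusted p = 0.00054) and rho 0.82 (p = 0.00031, adjusted p = 0.00117). All 3 relations stayed at 0.73 or above without these 2 pigs, between 0.79 and 0.92 within each number series and between 0.82 and 0.88 after centring on the slides. Whether r of ACLY with FASN differs between liver and GM was not tested. The log2 of the adipocyte sum had r of 0.40 with FASN, 0.16 with SCD and 0.07 with ACLY in GM (permutation, adjusted p = 0.423, 0.796 and 0.796), with rho of 0.36, 0.08 and 0.06. This sum is mostly FABP4 and LIPE, and the relation of single markers to the enzymes in GM was not tested. ACACA was left out there, since none of its probes was above background on all 16 GM arrays. SREBF1 in GM was compared with the enzymes within each number series only, and none of these relations passed. There r lay between -0.49 and 0.55 (exact permutation, adjusted p of at least 0.322), negative in the lower and positive in the upper series. The 0.55, with FASN in the upper series, turned to -0.55 without E2 and C4.

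In kidney none of 10 relations passed. FASN and SCD had r = 0.04 (permutation p = 0.882, adjusted p = 0.979), and FASN spanned only 12.07 to 13.20 there. SREBF1 and ACACA had the lowest unadjusted value, r = 0.51 with permutation p = 0.0425 and adjusted p = 0.383. FASN and ACLY had r = -0.41 (adjusted p = 0.383), and -0.75 after centring on the slides (permutation within slides, p = 0.0106, not adjusted). The sign rests on the probe, since FASN on A_72_P338038 had r = 0.28 with the same ACLY probe, and these FASN probes had r = 0.47 with each other in kidney.

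The same pig could be followed across tissues. SCD was related between liver and GM with r = 0.79 (permutation p = 0.00028, adjusted p = 0.0028 over 10 relations) and rho 0.67 (p = 0.00589, adjusted p = 0.058). The F2 E barrow E6 was lowest for SCD in both, 11.82 in liver and 10.35 in GM, and the F2 C barrow C2 was highest in both, 15.37 and 14.59. Without these 2 pigs r was 0.63. FASN was related between liver and GM with r = 0.65 (n = 15, permutation p = 0.00877, adjusted p = 0.0292) and rho 0.64 (p = 0.0116, adjusted p = 0.058), with 0.45 in the lower and 0.83 in the upper series. SCD was also related between GM and kidney (r = 0.64, permutation p = 0.00685, adjusted p = 0.0292, rho 0.58, adjusted p = 0.069), while the relation between liver and kidney did not pass (r = 0.52, permutation p = 0.0413, adjusted p = 0.103, rho 0.53, adjusted p = 0.0915). None of the 10 rank relations passed 0.05 after adjustment. ACLY gave r of -0.36, -0.19 and -0.08 for its 3 pairs of tissues (adjusted p of at least 0.344), and ACACA gave 0.22 between liver and kidney (adjusted p = 0.593).

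Among 1309 named genes with a probe above background on all 16 livers, those among the 5 most alike and the 3 most opposed to each gene by Pearson's r are given as a description, with no test. FASN went with ANPEP (0.93), a membrane aminopeptidase, SCD (0.86), ACSS2 (0.84), the cytosolic enzyme that makes acetyl-CoA from acetate, ANGPT1 (0.82) and SLC5A11 (0.80), and ran against DHRS4 (-0.85), LDHB (-0.81), a lactate dehydrogenase subunit, and DLAT (-0.81), a subunit of the pyruvate dehydrogenase complex. SCD went with FASN (0.86), ACSS2 (0.86), ANPEP (0.82) and ARL3 (0.80), and ran against DLAT (-0.80), LDHB (-0.80) and CRAT (-0.74), carnitine acetyltransferase. FASN and SCD shared 2 of 5 neighbours other than each other, ANPEP and ACSS2, and 2 of 3 opposed genes. ACACA went with BMP4 (0.75), PFKFB1 (0.74), a regulator of glycolysis in liver, FASN (0.69), GLO1 (0.69) and GSTA1 (0.68), and ran against PC (-0.83), pyruvate carboxylase, CIDEB (-0.78) and SLC25A3 (-0.76). ACLY had other neighbours, among them 2 genes of cholesterol handling: NPC1 (0.78), which moves cholesterol out of lysosomes, LMCD1 (0.75), CYP51 (0.72), a demethylase of cholesterol synthesis, NAB2 (0.72) and DESI2 (0.71). It ran against FOXP2 (-0.65) and TRIM8 (-0.59). For SREBF1 a ranking over all livers mixes its 2 sets of pigs. The 5 genes it put first were MOBKL3, H2AFZ, REEP3, GGTA1P and STEAP4, and over the 10 high pigs alone their r with SREBF1 was 0.76, 0.03, 0.48, 0.19 and -0.26. MOBKL3 thus had the highest r of these 5 inside that set, where the other named genes were not ranked. The genes most opposed to SREBF1 over all livers, CALCRL, RACK1 and PLAGL1, had r of -0.73, -0.68 and -0.68 over the same 10 pigs.

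Few other genes of the pathway carried a name on the array. Of 25 further enzymes of fatty acid synthesis only ACSS2 and SCD5 were named, of 25 genes of triglyceride synthesis and storage 10, of 41 regulators of SREBP and lipogenesis 8, of 20 cholesterol synthesis genes 3 and of 17 fasting-response genes 8. None of them was called between the lines in any tissue. At an unadjusted p below 0.05 these 5 lists gave 1 gene in liver, a regulator, and 0 in GM and kidney, against 138 of 1555, 192 of 1431 and 52 of 1661 named genes tested. Between the number series in GM, PRKAG1, a subunit of AMP-activated protein kinase, was higher in the upper series by 0.81 (SE 0.13, limma adjusted p = 0.00415), and PDK4, the kinase that shuts down pyruvate dehydrogenase in fasting, by 1.13 (SE 0.23, adjusted p = 0.0137), opposite to SREBF1. These 2 genes were chosen after their values were seen. They were the 1 call among 8 regulators and the 1 call among 8 fasting-response genes there, and the other lists gave none. Of 1431 named genes tested between the series in GM, 34 were called higher and 10 lower. Series and slide cannot be told apart for these genes either.

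Several of these genes varied with FASN over the 16 livers. They were chosen after their values were seen, so r is given as a description. LPIN1 (0.74), a phosphatidate phosphatase of triglyceride synthesis, was high where FASN was high. Of the fasting-response genes CPT1A (-0.64), which admits fatty acids to the mitochondria, and HADHA (-0.63), a subunit of the mitochondrial trifunctional protein, ran against it, and PDK4 (0.10) and TXNIP (0.15) did not follow it. PLIN2 (-0.67), CIDEB (-0.66), both proteins of the lipid droplet, and MTTP (-0.65), which loads lipoproteins, ran against FASN as well. With SCD the values had the same signs for these genes, except PDK4 (-0.02) and TXNIP (-0.02). With each gene named here on the same arrays, these values share libraries and are not independent of each other.

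Between tissues limma called most of the named genes of these lists, with the 48 arrays normalized together, the 1 scaling run for them. In liver against kidney 2 of 2 further synthesis enzymes were higher, 7 of 10 triglyceride genes were higher and 1 lower, 4 of 8 regulators were higher and 3 lower, 6 of 8 fasting-response genes were higher and 1 lower, and 2 of 3 cholesterol synthesis genes were higher. Of all 1723 named genes tested there 776 were higher and 583 lower, so the counts of the regulators lie near those of named genes in general. In kidney against GM both synthesis enzymes were lower, 7 of 10 triglyceride genes were lower and 2 higher, 6 of 8 regulators were lower and 1 higher, 4 of 8 fasting-response genes were higher and 3 lower, and of the cholesterol synthesis genes 1 was higher and 1 lower, against 680 higher and 709 lower of the named genes. In liver against GM 4 triglyceride genes and 3 regulators were called in each direction, 1 synthesis enzyme was higher and 1 lower, 5 of 8 fasting-response genes were higher and 2 lower and 3 of 3 cholesterol synthesis genes were higher, against 763 higher and 631 lower of the named genes. In liver against kidney ACSS2 was higher by 2.69 and SCD5, a second desaturase, by 0.73, MTTP by 5.25 and CIDEB by 4.86, whereas PNPLA3, a lipase of lipid droplets that SREBP-1 is known to induce, was lower by 3.95 (all limma adjusted p of 4.28e-06 or below). In liver against GM, SCD5 was lower by 0.98 and ACSS2 higher by 0.65 (adjusted p = 5.17e-09 and 0.000908), and NR1H3, the liver X receptor that induces SREBF1, was higher by 1.82 (adjusted p = 3.68e-26) while SREBF1 itself was not called. In kidney against GM, ACSS2 and SCD5 differed by -2.04 and -1.71 (adjusted p = 3.77e-15 and 1.54e-16), with kidney below GM as for FASN and SCD. Of the cholesterol synthesis list, SQLE and STARD4 were higher in liver than in GM, by 4.66 and 4.93. The leading probes of FASN and SCD were not called in that contrast.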

How the data were processed

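RNA of liver, GM and kidney of 16 F2 pigs was measured on 48 one-colour Agilent porcine arrays. Per the file headers, the deposited intensity values, one median pixel signal per spot, came from Feature Extraction 10.5.1.1 and were not normalized. The authors' tables of ratios and p-values were not used. The median signals of 43803 non-control spots were quantile-normalized within each tissue, or over all 48 arrays for tissue contrasts, and log2-transformed, after which marked outlier spots were removed and spots of 1 probe averaged. A probe was tested if, in 1 of the lines, 50% or more of the arrays gave a signal above 25 that was well above background. Tests used limma 3.58.1 in R 4.3.3 (lmFit, eBayes) with Benjamini-Hochberg adjustment over all probes and a threshold of 0.05, with the line as a covariate for sex and number series, and with the pig as a random block between tissues. Exact permutation tests of line, sex and number series ran over all splits of the pigs of a tissue, without the line as a covariate. The methods' t-test was an alternative. Correlations used 1 probe per gene, the brightest above background on all 16 arrays, and permutation tests. A normexp alternative (offset 50) was run on the median spot and background signals, since mean signals were not used here. Other alternatives were other scalings, filters, covariates, blocks and each array left out in turn. The fits were tested on simulated data. The genes named by rule were all probes of the 5 genes, the pathway genes called between lines, for each tissue contrast up to 3 called genes of a pathway list in each direction with the largest differences, and the 5 most alike and 3 most opposed named genes of each of the 5 genes in liver. The members, the gene lists and these rules were chosen with earlier results of these data known. Any other gene is said to be chosen after its values were seen. A few genes that the rule names are not reported here. The number of arrays limits the precision.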

Additional observations from a re-analysis of the deposited data

Results flagged for a closer look

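ACLY on its dim probe A_72_P188751 had 1 liver far from the others of its group: E8, an F2 E female, read 5.34 where the next F2 E pig read 6.06, a gap of 0.56 of the range of the group. The probe was above background on 3 of the 8 F2 E livers. It was 1 of 84 groups of values examined, and chance alone marks about 1 group in 20. For SREBF1 on A_72_P326973 the difference of the upper minus the lower number series was -1.59 in GM and 0.60, without a call, in liver. The signed liver value minus the signed GM value was 2.07 in the test of the interaction over all arrays normalized together, with limma's adjusted p = 0.00548. This test was added after the data were seen and uses the same GM difference. Each slide of liver and of GM held 1 number series, so series and slide cannot be told apart. The GM difference was not called with the slide as a random block.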

How the results depend on the processing

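No probe of the 5 genes was called between lines or between sexes under any alternative run, and the fit with the replicate number as a replicate block called 0 in liver, GM and kidney. The replicate numbers do not pair pigs. The number-series count in GM was 1, and became 2 with sex as a covariate, 0 with the slide as a random block and 1 to 2 with each array left out in turn (2 without F2 C replicate 1, the pig C1). The interaction of series with tissue for liver against GM gave 2 calls with the processed signal scaled at the 75th percentile, instead of 1. Limma called 8 of the 14 probes between liver and GM, but 4 with the median signal scaled at the 75th percentile and 12 with each tissue normalized on its own. The first of these scalings moved the median of all probes to -0.25 (0.38 for liver against kidney, -0.60 for kidney against GM). Under it liver minus GM turned to -0.0811 for ACACA A_72_P387983 and -0.23 for ACLY A_72_P188751, and kidney minus GM to -0.99 for ACACA A_72_P023091 and -1.01 for ACLY A_72_P188751. With each tissue normalized on its own, which moved the medians to 0.69, -0.18 and 0.90, liver minus GM turned to 0.71 for SREBF1 A_72_P223967, 0.60 and 0.64 for FASN A_72_P223177 and A_72_P338038 and 0.36 for SCD A_72_P359613. Liver minus kidney turned to -0.26 for ACLY A_72_P165331, and kidney minus GM to 0.72, 0.26 and 0.22 for ACACA A_72_P253137, A_72_P305844 and A_72_P387983. The cause was not tested. Leaving out each pig gave r of FASN and SCD between 0.84 and 0.89 in liver and 0.80 and 0.92 in GM, and of SCD between liver and GM 0.71 to 0.85. Dim ACACA and ACLY probes limit what these arrays show in GM.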
